A study of Mus musculus with 30 samples.

Results

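The response of wild-type telencephalic cultures to 24 h of BDNF was measured on 10 of the 30 arrays of the series, chosen by their titles: 5 dishes with BDNF and 5 basal dishes. The cells came from the telencephalon, the forebrain vesicle that gives rise to cortex and basal ganglia, of Xbp1 +/+ mouse embryos at embryonic day 12.5. Tissue of 4 embryos was combined and spread over 15 dishes, which were grown at low density in serum-free Neurobasal medium with B27. Both groups were lysed on day 4 in vitro, with BDNF at 100 ng/ml for the last 24 h in the treated dishes and no addition in the basal dishes. The dishes of a group therefore repeat the culture and the treatment but not the animals, and a p-value here reflects variation among dishes of the same pool alone. Cultures of Xbp1 -/- embryos, treated and lysed in the same way with 5 dishes per group, served for comparison, as did wild-type dishes with 48 h of BDNF.

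BDNF is a secreted neurotrophin. It binds the receptor tyrosine kinase TrkB, which signals through Ras and the kinase ERK, through PI3 kinase and through phospholipase C. ERK and calcium signals act on transcription factors such as CREB, SRF and the Ets family and thereby on immediate-early genes, and many genes of neuropeptides and secretory granules are known CREB targets. In developing forebrain BDNF is known for its effects on inhibitory neurons, on their peptide content and on synapse formation. ERK signalling also induces its own inhibitors, such as the Sprouty proteins and the phosphatase DUSP6.

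Each level below is the log2 of the array signal divided by the median of that array. Each change is the log2 difference between the mean of the 5 treated and the mean of the 5 basal dishes, ± SE from limma. A gene is said to have risen or fallen only where its Benjamini-Hochberg adjusted p over 7436 tested genes was below 0.05. Groups are said not to overlap where every treated dish lay above, or below, every basal dish. Median intensities were 85.2 to 103 in basal and 81.9 to 113 in treated arrays, and the 3'/5' ratio of the Gapdh probe sets, which rises as RNA degrades, was 2.72 to 2.94 and 2.67 to 3.05. The same ratio for Actb was 1.77 to 2.23 in basal and 1.56 to 1.95 in treated arrays, with 4 of the 5 treated dishes below every basal one, and its part in the results was not tested. Correlations over genes lay between 0.985 and 0.992 within the basal group, between 0.984 and 0.991 within the treated group, and between 0.975 and 0.985 across groups. The first principal component held 33.6% of the variance and separated the groups.

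The labelled tissue was set against marker genes, whose signals come from different probes and are a description only. The 5 measured markers of the telencephalic list, Dlx1, Dlx2, Dlx5, Lhx2 and Sox2, summed to 27.2 to 33.5 times the array median in basal dishes and to 24.4 to 30.2 in treated ones. Most of that sum was the signal of Sox2, which marks neural progenitors of all brain regions and had a basal mean level of 4.12. The basal means of the others were 2.38 for Lhx2, 2.19 for Dlx1, 0.64 for Dlx5 and 0.35 for Dlx2. The 6 markers of other brain regions, En1, En2, Gbx2, Hoxa2, Hoxb2 and Hoxc4, summed to 0.691 to 0.960 and 0.827 to 1.04, and Hoxc4 was at the floor of the scale in all 10 dishes. The cultures were not neurons alone. Ttr, the thyroid hormone carrier of choroid plexus, read 7.14 and 7.14 in the basal and treated means, the embryonic globin Hbb-y 6.13 and 6.15, and the smooth-muscle actin Acta2 5.62 and 5.38. These are bright members of their lists. Only 4 of 13 measured choroid plexus, 4 of 11 erythroid and 9 of 16 pericyte and smooth-muscle genes were bright enough to be tested. Dim members had basal means of -2.54 for Kl, -3.24 for Alas2 and -3.25 for Myh11. Of the meningeal and mesenchymal genes 17 of 19 were tested.

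Xbp1 itself, the gene removed in the comparison cultures, did not pass the test in wild type. Its brightest probe set read 4.43 ± 0.04 in basal and 4.55 ± 0.08 in treated dishes (SD, n = 5), a difference of 0.12 ± 0.06 (limma, adjusted p = 0.178). Its other probe sets changed by -0.05, 0.32 and 0.14, none past the threshold.

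Of the 7436 tested genes, limma called 1074 (14.4%) after 24 h of BDNF, 598 higher (8.04%) and 476 lower (6.40%). The median change of all tested genes was 0.01. The upper end of the response was the longer one. At least 1.5-fold were 98 rises (1.32%) and 29 falls (0.390%), and at least 2-fold were 33 rises and 1 fall, that of Pmf1, a kinetochore protein named after its value was seen, whose dishes overlapped. Groups did not overlap for 780 genes (10.5%), and 646 of these were also called (8.69%). Large rises were most frequent among dim genes: 50 of the 98 lay among the 2479 dimmest tested genes, 26 among the 2478 in the middle and 22 among the 2479 brightest. These counts depend on the level filter, which kept the upper 60% of genes by mean level over all 30 arrays, treated ones among them. A dim gene could thus pass through its treated dishes, and one that fell could miss the filter. A fit without the filter gave 164 rises and 52 falls of at least 1.5-fold. The direction split depended on scaling, as 55.7% of calls were higher with the array median, 48.3% with quantile normalization and 47.0% with the 75th percentile, while the median change stayed within 0.02 of 0 in each.

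**Figure D1:**
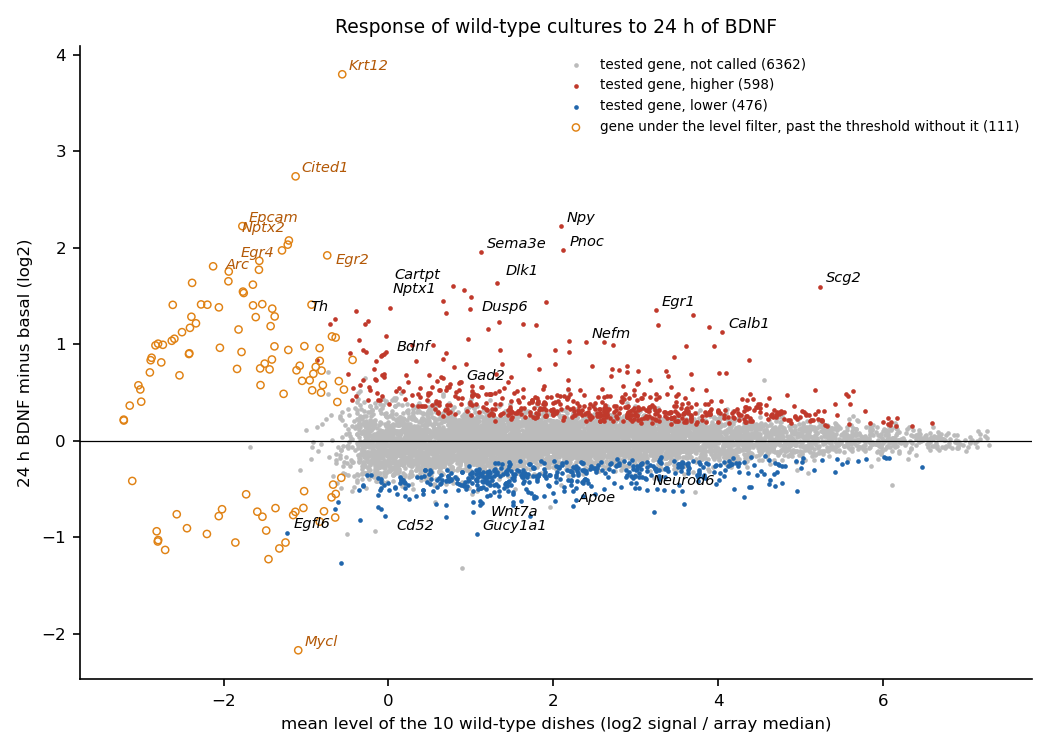
Change after 24 h of BDNF (y axis, log2) against the mean level of the 10 wild-type dishes (x axis, log2 of signal over array median) for 7436 tested genes. Red and blue points are the 598 and 476 genes past the threshold. Open circles are 111 genes under the level filter that pass in a fit without it, among them Krt12 with the largest fitted rise.

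The genes of neuropeptides had the highest median change of the 49 gene lists. Of 14 tested precursors 11 rose and 0 fell (0 also at an unadjusted p under 0.05 in limma), with a median change of 0.97 against 0.01 for all tested genes. The level filter shaped this list, as Avp and Gal passed it with basal means of only -1.32 and -0.87. The precursor genes Pomc, Nmb and Nppc, with basal means of -0.18, -0.71 and -0.79, did not pass it. Npy, the precursor of the inhibitory peptide neuropeptide Y, read 1.11, 0.90, 0.94, 1.04 and 0.91 in the basal dishes and 3.13, 2.99, 3.00, 3.30 and 3.61 with BDNF. Every treated dish was far above the basal range, and the rise was 2.23 ± 0.10, or 4.68-fold (limma, adjusted p = 3.60e-17). Pnoc, which encodes the precursor of nociceptin, an opioid-like peptide, read 0.84, 1.47, 1.22, 1.13 and 1.02 before and 3.06, 3.08, 3.19, 3.12 and 3.11 after. Its treated dishes lay closer together than its basal ones, with a rise of 1.98 ± 0.09 (3.93-fold).

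Cartpt encodes the CART peptides, which act in feeding and reward circuits. It read 0.02, -0.23, 0.14, -0.10 and 0.07 in basal dishes and 1.48, 1.48, 1.44, 1.66 and 1.88 in treated ones, a rise of 1.61 ± 0.12 with no overlap. Sst encodes somatostatin, the marker peptide of a large class of cortical interneurons. It read 3.87, 3.96, 4.09, 3.91 and 3.93 and then 4.82, 4.54, 4.82, 4.87 and 4.92, without overlap, a rise of 0.84 ± 0.08 (1.79-fold, limma, adjusted p = 1.32e-09). Tac1, the precursor of substance P, rose by 1.20 ± 0.19 but unevenly, with treated dishes at 4.28, 3.60, 4.11, 3.25 and 4.09 and basal dishes between 2.56 and 2.80. Gal (galanin) rose by 1.25, Avp (vasopressin) by 1.21, Nts (neurotensin) by 0.99, Penk (enkephalin) by 0.95 and Adcyap1 (PACAP) by 0.59, each without overlap between groups. Grp, gastrin-releasing peptide, rose by 0.55 with overlapping dishes, and removal of any of 5 dishes (basal 2, 3 or 4, treated 1 or 5) ended its call.

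The response did not extend to every peptide gene. Cck, cholecystokinin, changed by 0.31 ± 0.11 (limma, adjusted p = 0.0528), Oxt, oxytocin, by -0.09 and Hcrt, orexin, by -0.12. A further 11 precursors were measured but lay under the level filter. In a fit without that filter Vip, the vasoactive intestinal peptide of another interneuron class, rose by 1.37 ± 0.29 (limma, adjusted p = 0.00327) from -2.10 to -0.73, with 1 basal dish at the floor. Pdyn, prodynorphin, also passed there with 1.04, but 4 of its 5 basal dishes and 1 treated dish were at the floor, and leaving out basal 5, treated 3 or treated 4 ended the call. The rest of the 11 did not pass. Basal and treated means were -1.64 and -0.92 for Cort, -0.71 and -0.54 for Nmb and -0.79 and -0.74 for Nppc. They were -0.18 and -0.34 for Pomc, -2.23 and -2.57 for Trh, -2.90 and -3.06 for Tac2 and -2.46 and -2.95 for Calcb. Nmu and Ucn were at the floor in every dish.

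Genes of the proteins that build secretory granules rose in part. Among the 8 tested genes of the list of granins and granule proteins 4 rose and 1 fell (Cadps2), with a median of 0.28. Scg2 encodes secretogranin II, a granin that is itself cut into peptides. It read 4.19, 4.48, 4.71, 4.44 and 4.34 without BDNF and 6.07, 6.13, 6.14, 5.81 and 6.00 with it, a rise of 1.60 ± 0.08 (3.03-fold, limma, adjusted p = 3.23e-16). The other granins moved less, with 0.67 ± 0.10 for Chga, 0.34 ± 0.07 for Chgb and 0.29 ± 0.07 for Scg3, and each had groups that did not overlap. Outside that list Ptprn, a membrane protein of dense-core granules (also known as IA-2), read 0.44 to 0.95 in basal and 1.72 to 2.30 in treated dishes and rose by 1.23 ± 0.11. Cadps2, a priming factor for granule release, went the other way and fell by 0.58 ± 0.08, from 1.97 to 2.21 down to 1.41 to 1.66. Cadps, its relative, changed by 0.09.

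Of 8 tested processing enzymes that cut or trim prohormones, 2 rose and 2 fell, beside 8.04% higher and 6.40% lower of all tested genes. Pcsk1, the prohormone convertase of regulated secretion, rose by 0.53 ± 0.12 and Pcsk5, a related convertase, by 0.65 ± 0.09, each without overlap. Pcsk6 fell by 0.40 and Cpz, a carboxypeptidase of the extracellular matrix, by 0.38; the first call was lost without basal 2 or treated 3 and the second without basal 3, basal 5 or treated 1. Th, the rate-limiting enzyme of catecholamine synthesis, is no peptide gene but rose with them. It read -1.75, -0.46, -1.69, -1.16 and -1.35 in basal and -0.24, 0.05, -0.22, 0.19 and 0.12 in treated dishes, a rise of 1.26 ± 0.17, with basal dish 2 close to the treated ones. With a basal mean of -1.28, Th passed the level filter through brighter dishes of other groups.

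The promoters of 4 of these large rises share an intact cAMP response element, the palindrome TGACGTCA that CREB binds and that reads the same on both strands. Promoter windows of 300 bases, from 250 before to 50 after the start, came from RefSeq annotation on GRCm38.p6 and were searched for this motif after the changes were known. The stretches that hold it are printed below with 30 bases on each side and the element in capitals, in the direction of the gene, for Cartpt, Scg2, Th and Sst and for the granule genes Pcsk1 and Chgb.
Cartpt, chr13:99900758-99900825, minus strand: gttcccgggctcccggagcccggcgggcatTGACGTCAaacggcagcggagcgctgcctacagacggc
Scg2, chr1:79440057-79440124, minus strand: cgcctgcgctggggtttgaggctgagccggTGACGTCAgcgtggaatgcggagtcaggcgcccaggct
Th, chr7:142900003-142900070, minus strand: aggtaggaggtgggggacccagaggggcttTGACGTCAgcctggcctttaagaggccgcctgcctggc
Sst, chr16:23890855-23890922, minus strand: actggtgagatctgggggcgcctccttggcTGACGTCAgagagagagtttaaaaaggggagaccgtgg
Pcsk1, chr13:75089749-75089816, plus strand: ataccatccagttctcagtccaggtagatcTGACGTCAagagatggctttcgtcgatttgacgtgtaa
Chgb, chr2:132781540-132781607, plus strand: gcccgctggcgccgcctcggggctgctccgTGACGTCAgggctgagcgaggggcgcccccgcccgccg

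All 6 elements lay upstream of the annotated start in these stretches, with the first base of the motif 112 bases before it in Cartpt, 78 in Pcsk1, 72 in Chgb, 68 in Scg2, 48 in Sst and 45 in Th. The motif is rare: it was present in 588 of all 32851 promoter windows (1.79%) and at 236 of the 6096 tested genes with a window (3.87%). It was present at 29 of 489 genes that rose (5.93%), at 8 of the 76 that rose at least 1.5-fold (10.5%) and at 7 of 382 that fell (1.83%). The 8 were Cartpt, Scg2, Th, Sst, Mlf1, Maff, Plk2 and Mitf. Of the 11 neuropeptide precursors that rose, Cartpt and Sst alone were among the 29. The 6 genes printed were picked because they hold the motif. The shorter form, TGACG or CGTCA, is contained in the full motif and was present at 38.6% of tested genes, 44.6% of rises and 29.6% of falls. The windows of Npy and Dusp6 held neither form, and a match in a window is a description of its letters, not evidence of binding.

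**Figure D2:**
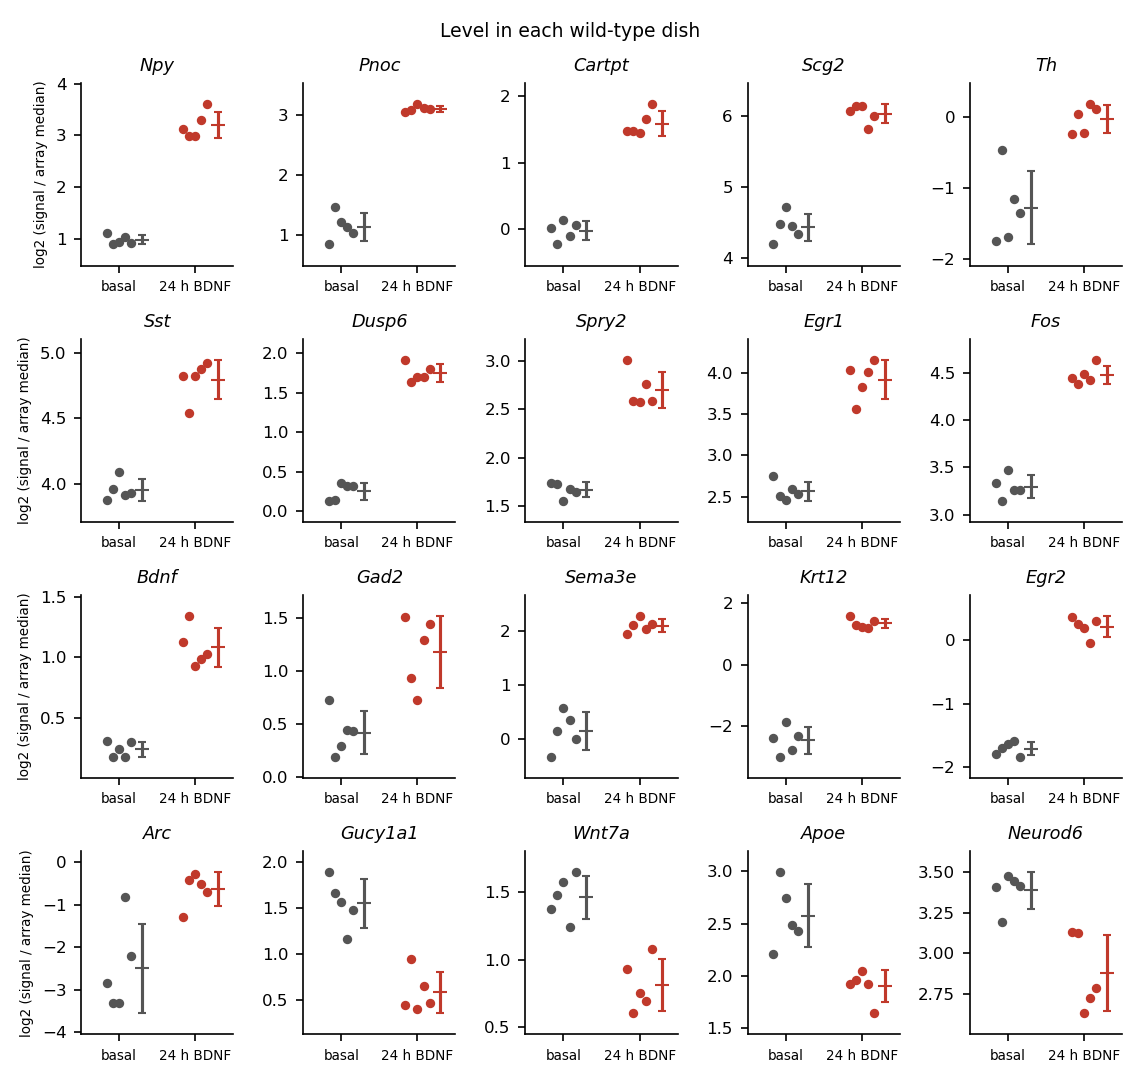
Level of 20 genes in each wild-type dish (y axis, log2 of signal over array median), basal in grey and 24 h of BDNF in red; bars are mean ± SD of 5 dishes. The groups do not overlap in any panel but that of Arc, where basal dish 4 reached -0.82. Krt12, Egr2 and Arc lay under the level filter.

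Genes of GABA synthesis rose, while the vesicular GABA carrier and the transcription factors of GABAergic neurons did not pass. Of 4 tested genes 3 rose, with a median of 0.49. Gad1, a glutamate decarboxylase that makes GABA, read 5.11, 5.29, 5.54, 5.41 and 5.37 in basal and 5.93, 5.77, 5.79, 5.76 and 5.76 in treated dishes, a rise of 0.46 ± 0.07 (limma, adjusted p = 4.00e-05). The groups did not overlap. Gad2, the second decarboxylase, read 0.72, 0.19, 0.30, 0.45 and 0.43 and then 1.51, 0.93, 0.73, 1.29 and 1.44, which left only a narrow gap between the highest basal and the lowest treated dish (0.76 ± 0.15). Abat, which breaks GABA down, rose by 0.53 ± 0.12. Slc32a1, the vesicular GABA transporter, changed by -0.01 ± 0.11 (limma, adjusted p = 0.956).

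Of 13 tested transcription factors of the GABAergic lineage, among them Dlx1, Lhx6 and Isl1, 0 passed in limma and 1 was lower at an unadjusted p under 0.05, with a median of -0.05. Their summed signal had medians of 76.3 in basal and 70.7 in treated dishes, with overlapping ranges. Without basal dish 3 the list held 1 rise, and without basal 4 or treated 1 it held 1 fall. Among 7 tested calcium-binding proteins of interneurons 2 rose and 2 fell, beside 8.04% higher and 6.40% lower of all tested genes. Calb1, calbindin, rose by 1.12 ± 0.09 from between 3.28 and 3.61 to between 4.43 and 4.80, and Vsnl1, visinin-like protein, by 0.98 ± 0.10, while Necab2 and Ncald fell by 0.34 and 0.33. In a bulk culture more cells of a type and more RNA per cell cannot be told apart.

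Genes that ERK switches on, several of which restrain it in turn, rose in the majority. Of 13 tested ERK feedback and target genes 8 rose and 0 fell, with 1 lower at an unadjusted p under 0.05 in limma and a median of 0.31. Dusp6, the phosphatase that inactivates ERK in the cytoplasm, read 0.13, 0.14, 0.36, 0.32 and 0.32 in basal dishes and 1.91, 1.63, 1.70, 1.69 and 1.80 with BDNF. The rise was 1.49 ± 0.08, or 2.81-fold (limma, adjusted p = 1.38e-15). Spry2, a Sprouty inhibitor of receptor tyrosine kinase signalling, read 1.74, 1.73, 1.56, 1.68 and 1.64 and then 3.01, 2.58, 2.57, 2.76 and 2.58, a rise of 1.03 ± 0.09, whereas its dimmer second probe set changed by 0.06.

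Smaller rises were those of Phlda1, a growth-factor-induced pleckstrin domain protein, with 0.69 ± 0.08, and of the Sprouty-related inhibitors Spred1 and Spred2 with 0.54 and 0.35. Errfi1, an inhibitor of ErbB receptors, rose by 0.31. Spry1 rose by 0.27, a call that was lost in 8 of the 10 fits with 1 dish left out (all but those without basal 3 or treated 2). Dusp1, a nuclear phosphatase, changed by 0.16 and did not pass, nor did Myc with -0.24, although in both the groups did not overlap. Under the level filter, Spry4 passed with 1.06 ± 0.26 and the Ets factor Etv5 with 0.96 ± 0.18 in the fit without it, while Etv4 was at the floor in 4 basal and all 5 treated dishes.

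Immediate-early genes, which answer a stimulus within minutes to hours, were in part higher in the dishes with 24 h of BDNF. Of 12 tested ones 3 rose and 0 fell, with a median of 0.19; at an unadjusted p under 0.05 in limma 7 were higher and 0 lower. Egr1, a zinc-finger factor counted in both lists, read 2.75, 2.50, 2.45, 2.59 and 2.53 before and 4.04, 3.56, 3.83, 4.01 and 4.15 after, a rise of 1.35 ± 0.09. Fos, a subunit of AP-1, read 3.34, 3.15, 3.47, 3.26 and 3.26 before and 4.45, 4.39, 4.49, 4.42 and 4.63 after, a rise of 1.18 ± 0.08 (2.26-fold, limma, adjusted p = 4.42e-13). Every treated dish lay above every basal dish for both genes. The third, Ier2, rose by 0.39 ± 0.09, and without treated dish 2 the count was 5.

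Others of the family did not pass. Jun changed by 0.16, Nr4a1 by 0.22, Btg2 by 0.15, Klf4 by 0.11 and Atf3 by 0.05. Several members lay under the level filter and were read from the fit without it. Egr2, a relative of Egr1, read -1.78, -1.69, -1.63, -1.59 and -1.83 and then 0.37, 0.26, 0.20, -0.05 and 0.31, none at the floor, with a rise of 1.92 ± 0.14 (3.79-fold, limma, adjusted p = 6.37e-10). Egr4 passed with 1.97 ± 0.44 and Arc, a cytoskeletal protein of active synapses, with 1.86 ± 0.35, each with 2 basal dishes at the floor. These 3 calls held with each of the 10 dishes left out. Fosb passed with 0.90, but its call was lost in 7 of the 10 such fits (all but those without basal 1, basal 4 or treated 4) and 3 basal dishes were at the floor, while Egr3 changed by 0.13 and Junb by 0.33 and did not pass.

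Bdnf, the gene of the ligand itself, read 0.30, 0.18, 0.24, 0.18 and 0.30 in basal and 1.13, 1.34, 0.93, 0.98 and 1.03 in treated dishes. The rise was 0.84 ± 0.14 (1.79-fold, limma, adjusted p = 4.91e-05), and its other probe set rose by 0.51. It was the only one of 4 tested neurotrophin and receptor genes that passed, and the TrkB gene Ntrk2 was among the 3 that did not.

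Genes of synapse-organizing proteins rose as well. Nptx1, a neuronal pentraxin that clusters AMPA receptors, read -0.08, 0.05, -0.08, 0.05 and -0.28 and then 1.33, 1.23, 1.57, 1.20 and 1.58, a rise of 1.45 ± 0.11. C1ql3 and Lgi1, both secreted synaptic proteins, rose by 0.51 and 0.44, which made 3 of 4 tested genes of this list. Nptx2, the activity-regulated pentraxin, lay under the level filter and passed without it at 2.03 ± 0.30, from between -3.24 and -1.48 to between -0.82 and 0.28. Icam5, an adhesion protein of telencephalic neurons, rose by 1.37 ± 0.27, and its basal dish 4 at -2.24 stood apart from the others at -0.47 to 0.18. Of 21 tested synaptic vesicle genes 4 rose and 2 fell, with a median of 0.02, where 8.04% of all tested genes were called higher and 6.40% lower. The vesicle protein genes Rab3c and Syt4 rose by 0.89 and 0.69, Syp by 0.35 and Snap25 by 0.28, and Dnm1, the endocytic dynamin, fell by 0.40. The call of Snap25 was lost without basal 1 or basal 5. Without rescaling of the arrays the vesicle list held 2 rises and 1 fall.

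Among other neuronal genes single ones changed and most did not pass. The counts here stand beside 8.04% of all tested genes called higher and 6.40% called lower. The neurofilament subunits Nefm and Nefl rose by 1.02 ± 0.10 and 0.98 ± 0.10, and both calls had groups without overlap, while the remaining 17 tested genes of the neuronal cytoskeleton held 1 fall (Ina, -0.20, lost without basal 1, 2 or 5 or treated 2 or 3). Eno2, the neuronal enolase, read 2.00, 2.27, 2.16, 2.05 and 2.07 in basal and 3.30, 2.90, 3.11, 3.15 and 3.21 in treated dishes, a rise of 1.03 ± 0.07. The glycolytic aldolase Aldoa and the glucose transporter Slc2a3 rose by 0.38 and 0.31, the other calls among 17 genes of this list. Slc17a6, the vesicular glutamate transporter VGLUT2, rose by 0.86 ± 0.10 from between 2.81 and 3.39 to between 3.82 and 4.01. The AMPA receptor subunit Gria2 rose by 0.32 and the kainate receptor subunit Grik1 fell by 0.53 ± 0.09. Of 15 tested voltage-gated channel genes 2 rose, Kcna1 by 0.49 and Cacna2d3 by 0.27, beside 8.04% of all tested genes called higher. Both calls were lost without rescaling of the arrays, where 3 genes of the list were higher at an unadjusted p under 0.05 in limma. Of 6 pan-neuronal markers Snap25 alone passed.

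Further large rises were in genes of several kinds. Tacr3, the neurokinin B receptor, rose by 1.35 ± 0.15, with basal dishes between -1.13 and -0.98 and treated dishes between -0.11 and 0.66. Its second probe set changed by 0.05. Pde1a, a calmodulin-dependent phosphodiesterase, rose by 1.37, the calcium-binding protein genes Cgref1 and Tesc by 1.21 each, and Stc1, the secreted glycoprotein stanniocalcin, by 1.33 ± 0.12. Tacr3 and Tesc, with basal means of -1.07 and -0.89, passed the level filter through brighter dishes of other groups. Ercc1, a subunit of a DNA repair nuclease, rose by 1.20 ± 0.09, and the noncoding transcript 2010204K13Rik by 1.44 ± 0.09.

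In the guidance and imprinted lists most members did not pass, and single genes stood out. Their counts stand beside 8.04% of all tested genes called higher and 6.40% called lower. Sema3e, a repellent ligand of the receptor plexin D1, read -0.33, 0.13, 0.57, 0.35 and -0.01 and then 1.95, 2.11, 2.27, 2.04 and 2.13. Its rise of 1.96 ± 0.16 stood against a median of -0.15 for the 16 tested semaphorins, plexins and neuropilins, and its other probe sets rose by 1.30 and 2.62. In that list Plxna2 rose by 0.40, and Sema4g and Nrp1, a semaphorin coreceptor, fell by 0.42 and 0.37, and without treated dish 1 the list held 4 falls. Unc5b, a netrin receptor, rose by 0.57 ± 0.10. Dlk1, a membrane protein of the Notch ligand family and an imprinted gene, read 0.22, 0.83, 0.65, 0.43 and 0.37 and then 2.21, 1.78, 2.20, 2.33 and 2.17, a rise of 1.64 ± 0.13. Of the 18 tested imprinted genes only Impact (0.32) and Plagl1 (0.24) rose besides it, and the median was 0.05.

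Igf1, the insulin-like growth factor, read 2.64, 2.70, 2.82, 2.49 and 2.69 in basal dishes and 3.40, 3.19, 3.40, 3.47 and 3.48 with BDNF. The rise was 0.72 ± 0.07 (limma, adjusted p = 1.95e-09), and its other probe sets rose by 0.59 and 0.51. The binding protein gene Igfbp3 rose by 0.66 ± 0.13. Akr1b8, an aldo-keto reductase of the NRF2 type, rose by 1.56 ± 0.09 and Srxn1, sulfiredoxin, by 0.91 ± 0.12. The NRF2-type list as a whole did not move one way, with 3 rises and 3 falls among 16 tested genes. Of all tested genes 8.04% were called higher and 6.40% lower. Rbp4, a retinol carrier, rose by 0.49 and Crabp1, a retinoic acid binding protein, fell by 0.51.

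**Figure D3:**
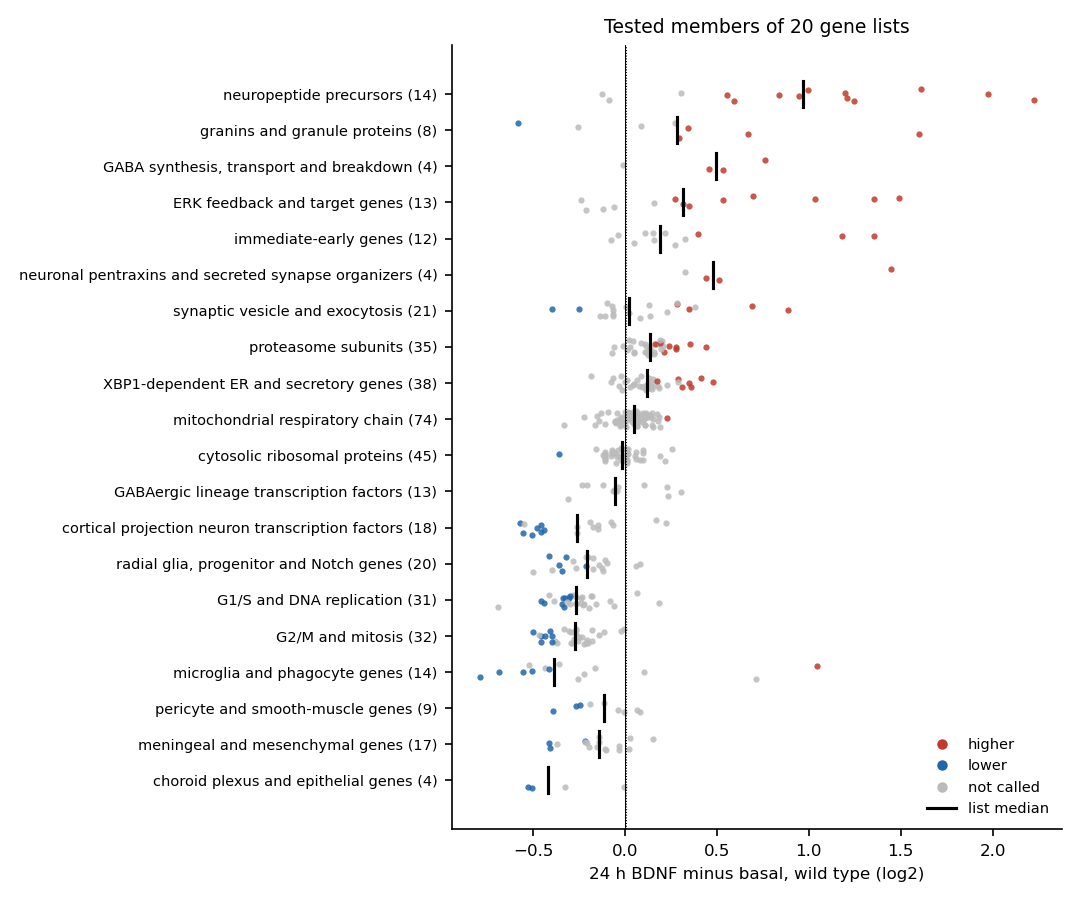
Change of each tested member (x axis, log2) for 20 gene lists (y axis, number tested in parentheses). Points are genes, red for called higher, blue for called lower and grey for not called; black bars are list medians and the dotted line the median of all tested genes. Neuropeptide precursors reach a median of 0.97, and the cell cycle, progenitor and cortical factor lists lie below 0.

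Genes of the secretory and protein turnover machinery had medians slightly above 0. Of 38 tested XBP1-dependent genes of the endoplasmic reticulum 7 rose and 0 fell (0 also at an unadjusted p under 0.05 in limma), with a median of 0.12 and 32 above 0. Dnajb11, a cochaperone of BiP, rose by 0.48 ± 0.10 from between 2.46 and 2.89 to between 3.09 and 3.42, Hyou1 by 0.41, Pdia3 by 0.36 and Ostc by 0.35. The mean of its probe sets turned Hyou1 to -0.01, and its call was lost without treated dish 4. Of 35 tested proteasome subunits 8 rose and 0 fell (0 also at an unadjusted p under 0.05 in limma), with a median of 0.13 and 32 above 0; the largest were Psmc5 with 0.44 ± 0.10 and Psmb7 with 0.35. Without basal dish 1 the count of proteasome rises was 3, and without rescaling of the arrays both lists held 1 rise. These shares, 7 of 38 and 8 of 35, compare with 8.04% of all tested genes called higher.

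The list counts that follow stand beside 8.04% of all tested genes called higher and 6.40% called lower. Respiratory chain genes gave 1 rise among 74 (Ndufa9, 0.23) and a median of 0.05, and 8 rises without treated dish 2. Ribosomal protein genes gave 1 fall among 45 (Rpl37, -0.36) and a median of -0.02, and that call was lost without any 1 of 8 dishes (all but basal 4 and treated 3). Of 25 tested ATF4 targets and amino acid genes 2 rose, Asns, asparagine synthetase, by 0.42 and Mthfd2 by 0.35, and 4 fell, with Pck2 at -0.58. Without rescaling of the arrays 1 rise and no fall passed in this list in limma (4 lower at an unadjusted p under 0.05). The call of Pck2 was also lost when probe sets were averaged and when only the 10 arrays compared were fitted. Of 34 lysosomal genes 5 rose and 3 fell, led by Laptm4b with 0.45 ± 0.06 and Lamp2 with -0.44 ± 0.10. Without basal 4 or treated 1 there were 3 lysosomal rises, and without treated 1 there were 6 falls. Quantile normalization gave 6 rises and 6 falls, the 75th percentile 5 and 5, and no rescaling 2 and 0 in limma (6 lower at an unadjusted p under 0.05). Other lists also held fewer calls without rescaling, with 1 rise each among imprinted genes and among semaphorins and their receptors, and 1 fall among NRF2-type genes. The falls of processing enzymes and of interneuron calcium-binding proteins did not pass there (2 and 3 lower at an unadjusted p under 0.05 in limma).

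The falls were smaller than the rises, and 6.40% of all tested genes were called lower. Genes of dividing cells were among them. Of 31 tested G1/S and replication genes 8 fell and 0 rose (0 also at an unadjusted p under 0.05 in limma), with a median of -0.27, and of 32 G2/M genes 7 fell and 0 rose (again 0 unadjusted), also with a median of -0.27. Mcm4, a helicase subunit of replication, read 3.22, 3.11, 3.20, 3.36 and 3.23 in basal and 2.89, 3.10, 2.75, 2.64 and 2.53 in treated dishes. It fell by 0.44 ± 0.09 (limma, adjusted p = 7.55e-04), and its treated dish 2 nearly touched the basal range. Bub1b, a spindle checkpoint kinase, fell by 0.46 ± 0.14, with overlapping dishes at 1.55, 1.52, 1.76, 2.06 and 1.68 and then 0.90, 1.70, 1.34, 1.22 and 1.10. These counts depended on single dishes and on scaling. Without basal dish 4 the lists held 3 and 0 falls, and without treated dish 2 they held 17 and 19, while the medians ranged from -0.36 to -0.20 and from -0.38 to -0.19 over the fits with 1 dish left out. Quantile normalization gave 10 and 11 falls and the 75th percentile 11 and 12, while without rescaling 0 passed in either list and 11 were lower in each at an unadjusted p under 0.05 in limma. Without basal dish 4, limma still placed 8 G2/M genes lower at an unadjusted p under 0.05, against 21 with all dishes. The call of Bub1b was lost without basal 4, treated 1 or treated 5.

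Of 20 tested radial glia, progenitor and Notch genes 5 fell and 0 rose (0 also at an unadjusted p under 0.05 in limma), with a median of -0.21. Hes1, an effector of Notch signalling, fell by 0.42 ± 0.13, with basal dishes at 0.92, 1.05, 1.45, 1.82 and 1.14 and treated dishes at 0.81, 0.88, 0.88, 0.90 and 0.85. Its basal dish 4 was the highest of all, and the call was lost without basal 3 or basal 4. Notch1 fell by 0.34, Ptn by 0.32, Prom1 by 0.36 (lost without basal 4) and Vim by 0.21. Without basal dish 4 the list held 3 falls, without treated dish 2 it held 8, and without rescaling it held 0 in limma (7 at an unadjusted p under 0.05). Wnt7a, a ligand made by cortical progenitors, fell by 0.65 ± 0.11, from 1.37, 1.47, 1.57, 1.24 and 1.64 to 0.93, 0.61, 0.76, 0.69 and 1.08.

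Transcription factors of cortical projection neurons and their precursors were also among the falls. Of 18 tested ones 7 fell and 0 rose (0 also at an unadjusted p under 0.05 in limma), with a median of -0.26, and the count stayed between 6 and 9 with any 1 dish left out and between 6 and 10 over the scalings. Fezf2, which specifies deep-layer neurons, read 2.83, 2.48, 2.48, 2.92 and 2.53 and then 2.07, 2.31, 2.09, 1.95 and 1.96, a fall of 0.57 ± 0.12 with no overlap. Eomes, the factor of intermediate progenitors, read 2.78, 2.64, 2.59, 3.18 and 2.72 and then 2.12, 2.50, 2.19, 2.13 and 2.21, a fall of 0.55 ± 0.12. Neurod6 fell by 0.51 ± 0.11 and Nfix by 0.48 ± 0.08, and Nfia, Sox5 and Bcl11b were the other calls. Above 0 were 2 of the 18, Tbr1 (basal and treated means 1.18 and 1.40) and Foxp1 (2.63 and 2.80), neither past the threshold. The summed signal of the list was 143 to 166 in basal and 120 to 138 in treated dishes.

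The largest falls without overlap between dishes were spread over genes of several kinds. Gucy1a1, a subunit of the nitric oxide receptor guanylate cyclase, read 1.89, 1.67, 1.56, 1.16 and 1.48 in basal and 0.45, 0.95, 0.40, 0.65 and 0.47 in treated dishes, a fall of 0.97 ± 0.17 (limma, adjusted p = 8.83e-05). Egfl6, a secreted matrix protein, fell by 0.95 ± 0.15 and Sla, a Src-like adaptor, by 0.78 ± 0.11. St6gal1, a sialyltransferase, fell by 0.74, while its dimmer probe set changed by 0.09 and the mean of both lost the call. Socs2, an inhibitor of cytokine signalling, fell by 0.63 ± 0.08 from between 1.81 and 2.02 to between 1.04 and 1.53. Tenm2, the adhesion protein teneurin, and Mme, the peptide-degrading enzyme neprilysin, fell by 0.63 each, and Kdm5a, a histone demethylase, by 0.60.

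Genes of non-neuronal cells were also among the falls. Of 14 tested microglia and phagocyte genes 5 fell and 1 rose, with a median of -0.39. Cd52, a leukocyte surface glycoprotein, read 1.36, 1.06, 1.02, 0.98 and 1.08 and then 0.73, 0.06, 0.01, 0.64 and 0.11, a fall of 0.79 ± 0.14, and Ly86, Laptm5, Tyrobp and Ctss fell by 0.69, 0.56, 0.51 and 0.41. Cd68, a lysosomal protein of macrophages, rose against them by 1.04 ± 0.19. The level filter shaped this list too, as Cd68 passed it with a basal mean of only -0.88. Ptprc, with a basal mean of -0.41 and a treated mean of -0.79, did not pass the filter. The count of falls was 3 without basal 3, 4 or 5 or without treated 2, 3 or 5, and 3 without rescaling of the arrays. The summed signal of the 27 measured genes of this list was 32.6 to 38.6 in basal and 26.4 to 37.0 in treated dishes, with treated dish 1 the highest of its group.

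Apoe, which carries lipids between cells, read 2.21, 2.99, 2.75, 2.49 and 2.43 in basal and 1.92, 1.96, 2.05, 1.92 and 1.64 in treated dishes and fell by 0.67 ± 0.12. It was the only call among 9 tested astrocyte markers, of which 3 fell without treated dish 2. Pericyte and smooth-muscle genes gave 3 falls among 9 (Myl9, Cald1 and Acta2, by 0.39, 0.26 and 0.25) and 1 without treated dish 4. Of the 9 genes 2 changed upward without passing, the pericyte markers Pdgfrb (basal and treated means 0.18 and 0.24) and Rgs5 (0.59 and 0.67). The call of Myl9 was also lost without basal 3, and those of Cald1 and Acta2 with the mean of probe sets. Without rescaling of the arrays none of them passed in limma (3 lower at an unadjusted p under 0.05). The summed signal of the 16 measured genes was 117 to 130.5 in basal and 100.0 to 111 in treated dishes, without overlap. Acta2 and Cald1, with basal mean levels of 5.62 and 4.91, made up most of that sum. Meningeal and mesenchymal genes gave 3 falls among 17 (Fmod, Ogn and Col1a2), with sums of 187 to 222 and 169 to 189. Their falls numbered 5 without basal dish 2, 6 with quantile normalization and 1 without rescaling. The call of Fmod was lost without basal 1 or treated 5, and that of Col1a2 without basal 3, treated 1 or treated 2. Of 4 tested choroid plexus genes Folr1 and Otx2 fell by 0.53 and 0.51, while the summed signal of the 13 measured genes, 146 to 162 and 137 to 162, overlapped. Ttr made up most of that sum: the other 12 summed to 9.93 to 13.5 and 8.59 to 10.2, and the mean of 9 of these 12 was lower in treated dishes.

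Markers of the remaining cell types did not pass in limma. Oligodendrocyte lineage (4 tested, 1 higher at an unadjusted p under 0.05), endothelial (2 tested, 0 unadjusted) and erythroid genes (4 tested, 0 unadjusted) gave no calls, nor did the 5 telencephalic markers, of which 2 were lower unadjusted and 2 fell without treated dish 2. Endothelial genes summed to 6.12 to 7.41 and 5.38 to 7.03, with 2 of 18 at the floor in all 10 dishes. The 6 neuron markers summed to 259 to 292 in basal and 261 to 284 in treated dishes. The part of cell composition in the falls was not tested.

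**Figure D4:**
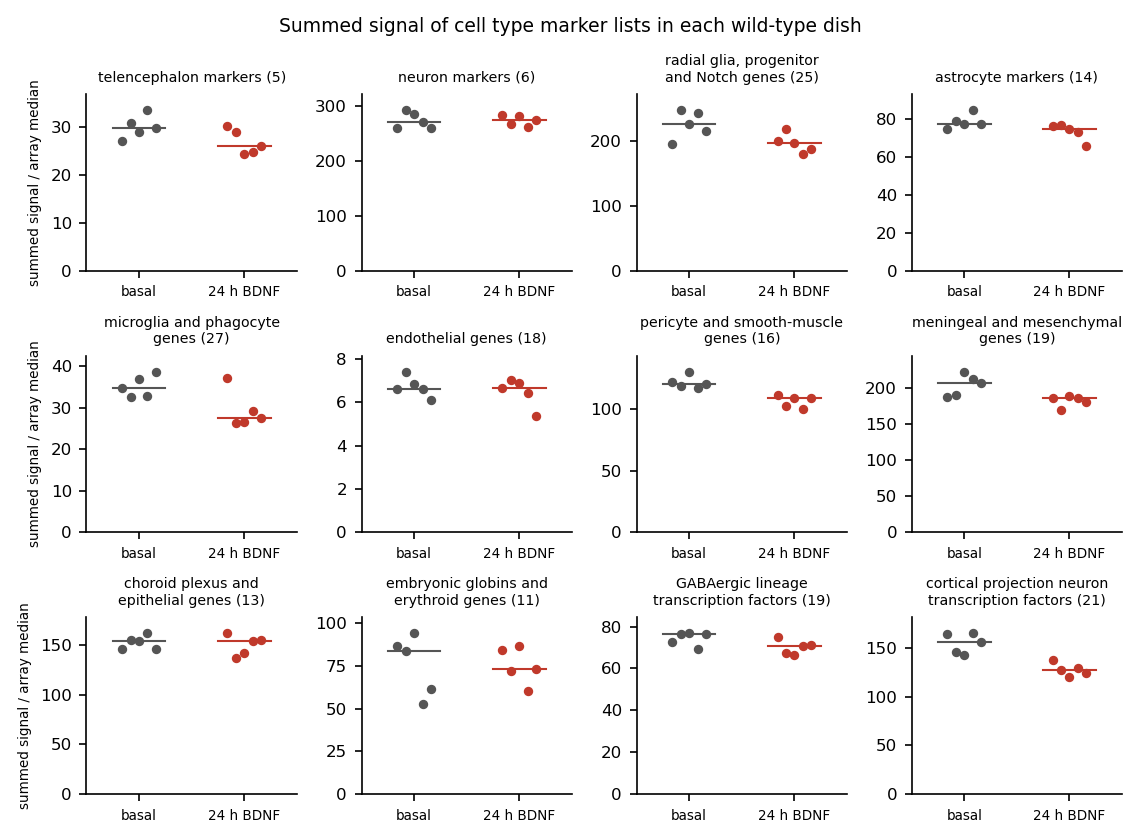
Summed signal (y axis, in multiples of the array median) of 12 marker lists in each wild-type dish, basal in grey and 24 h of BDNF in red, with the number of measured genes in parentheses and the group median as a line. The sums of pericyte and smooth-muscle genes and of cortical projection neuron factors lie lower in every treated dish than in any basal dish. Acta2 and Cald1 make up most of the pericyte and smooth-muscle sum, and neuron markers overlap.

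The level filter kept 4958 dim genes out of the test. In a fit of all 12394 genes without it, 80 of these passed as higher and 31 as lower, 67 and 25 of them at least 1.5-fold, and 62 of the 111 passed with each of the 10 dishes left out. Krt12, Cited1, Gem, Rrad and Mycl are named here after their values were seen, while Epcam, Kcna4 and Peg10 are list members. The values used here carry no detection calls, so the basal signal of such dim genes may be background and a fold is that of the signals alone. The largest fitted change among the 12394 genes was in Krt12. This keratin, known from corneal epithelium, read -2.37, -2.99, -1.85, -2.77 and -2.32 without BDNF and 1.57, 1.30, 1.23, 1.18 and 1.41 with it, none at the floor. The difference in signal was 3.80 ± 0.15, or 13.9-fold (limma, adjusted p = 2.85e-15), and stayed between 3.67 and 3.95 with any 1 dish left out. Cited1, a transcriptional coactivator, rose by 2.74 ± 0.32 with 2 basal dishes at the floor, and Epcam, an epithelial adhesion protein, by 2.22 ± 0.17 with 1 at the floor.

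Krt8 and Krt18, keratins of simple epithelia among the choroid plexus and epithelial markers, changed by -0.32 ± 0.24 and -0.34 ± 0.26 and did not pass (limma, adjusted p = 0.396 and, without the level filter, 0.499). Gem and Rrad, related small GTPases that restrain calcium channels, rose by 1.19 ± 0.19 and 1.81 ± 0.18. The potassium channel gene Kcna4 rose by 0.73 ± 0.15. Peg10, an imprinted gene of retroviral origin, passed with 1.22, with 2 basal dishes at the floor, and lost the call without basal 4, basal 5, treated 1 or treated 4. Of the falls Mycl, a Myc relative, was the largest at -2.17 ± 0.38, with overlapping dishes at 0.39, -0.64, 0.07, -0.11 and 0.25 and then -1.03, -3.18, -2.85, -3.32 and -0.52, the fourth at the floor.

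Knockout cultures, which share no array and no pool of embryos with the wild type, gave a second set of dishes under the same treatment. There limma called 856 genes (11.5%), 443 higher (5.96%) and 413 lower (5.55%), and 561 without knockout treated dish 2. Of the 598 genes that rose in wild type, 266 also rose in knockout dishes, which is 44.5% of the wild-type rises and 266 of the 443 knockout rises, and 572 had a change of the same sign. Of the 476 that fell, 206 fell there, 43.3% of the wild-type and 49.9% of the knockout falls, with 443 of the same sign. Among tested genes the large rises recurred more often than the large falls. Of the 98 rises of at least 1.5-fold 80 were called in knockout dishes and 97 kept their sign, against 11 and 26 of the 29 falls. The level filter used the knockout dishes too, so a dim gene that rose in both genotypes passed it more easily. Both contrasts also rest on the same fitted spread of each gene. Recurrence was mixed under the filter. Cited1 and Epcam rose by 2.53 and 1.97 in knockout dishes. Afp and Krtap3-1, with wild-type rises of 1.64 and 1.65, changed there by 0.40 and -0.06 and did not pass.

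Npy rose by 2.02 in knockout dishes, Sema3e by 1.81, Scg2 by 1.85, Pnoc by 1.56 and Cartpt by 1.40, and Krt12, from the fit without the level filter, by 3.45. Neuropeptide precursors gave 12 rises of 14 with a median of 1.14. Cortical projection neuron factors gave 7 falls of 18 with a median of -0.24. GABA synthesis genes gave 1 rise of 4 (Gad2, 0.56), and Gad1 changed by 0.19 (limma, adjusted p = 0.0923). The XBP1-dependent list gave 0 rises (2 at an unadjusted p under 0.05 in limma) and 1 fall of 38 with a median of 0.04. The direct test of the genotype difference, given next, passed for neither Gad1 nor any gene of the XBP1-dependent list.

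The genotype difference in the response, tested directly, passed for 7 genes (0.0941%), against 455 at an unadjusted p under 0.05. Each genotype was 1 pool of embryos, so genotype and pool cannot be told apart. Dusp6 rose by 1.49 in wild type and by 0.82 in knockout dishes, from basal values of 0.25, 0.16, 0.53, 0.46 and 0.47 to 1.22, 1.18, 1.13, 1.16 and 1.30, a difference of -0.67 ± 0.11 (limma, adjusted p = 0.00592). The knockout basal level did not differ from wild type past the threshold, and all treated knockout dishes lay below all treated wild-type dishes. Spry2 rose by 1.03 and 0.39, a difference of -0.64 ± 0.13 (limma, adjusted p = 0.0162). Igf1 rose by 0.72 in wild type and changed by 0.14 in knockout dishes (difference -0.58 ± 0.10), where its basal level was already 0.54 higher than in wild-type basal dishes.

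Homer2, a scaffold of postsynaptic receptors, rose by 0.59 in wild type and changed by 0.05 in knockout dishes (difference -0.54 ± 0.10). Adamts5, a protease of matrix proteoglycans, rose by 0.29 in wild type and fell by 0.45 in knockout dishes, whose basal level was 1.64 higher; its wild-type call was lost without basal 1, 2 or 4 or treated 3 or 5. Zcchc18 changed by -0.11 in wild type and rose by 0.49 in knockout dishes. Bdnf went the other way from Dusp6, with rises of 0.84 and 1.78 and a difference of 0.93 ± 0.19 (limma, adjusted p = 0.0367). The count fell to 3 without wild-type basal dish 3, was 16 without wild-type basal dish 4 and 11 without knockout treated dish 2. The call of Bdnf was lost in 11 of 21 alternative fits and also with any of 6 knockout dishes left out (basal 1, 3 or 5, treated 3, 4 or 5), and that of Zcchc18 without knockout treated dish 3. Without wild-type basal dish 3 the calls of Homer2, Spry2 and Zcchc18 were also lost, and without wild-type basal dish 2 that of Zcchc18. The mean of probe sets ended the calls of Igf1 and Spry2.

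**Figure D5:**
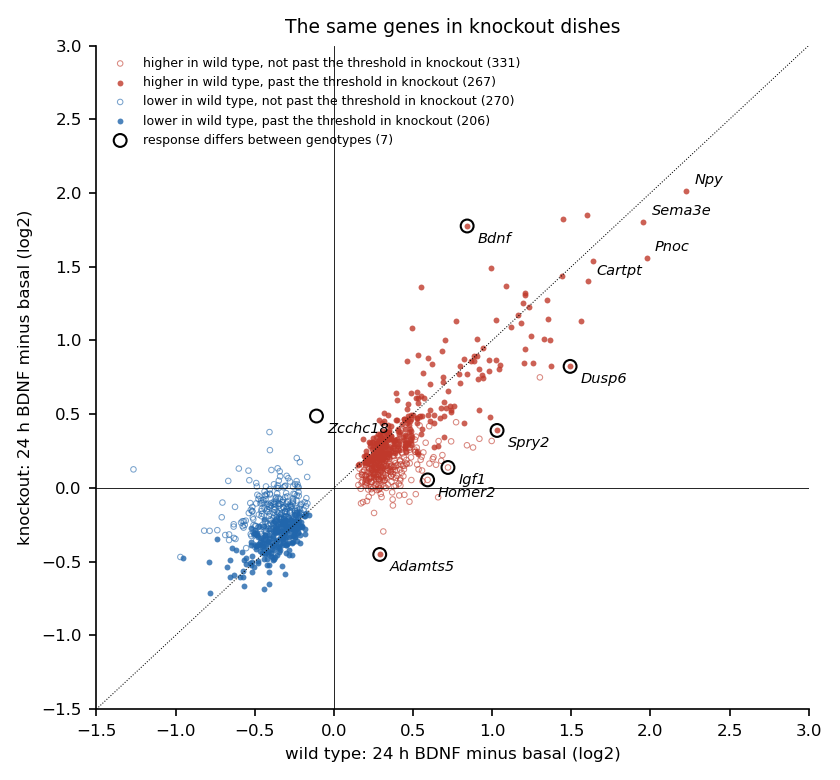
Change after 24 h of BDNF in knockout dishes (y axis, log2) against that in wild-type dishes (x axis, log2) for the 1074 genes called in wild type, red for higher and blue for lower, and for Zcchc18. Filled points also pass in knockout dishes, 266 in the same direction among the rises and Adamts5 in the opposite one. Black circles mark the 7 genes whose response differed between genotypes, and the dotted line is equality.

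Wild-type dishes with 48 h of BDNF were lysed a day later and are set against the same 24 h arrays, so only values of named genes are given; of all tested genes 13.9% passed between 24 and 48 h. Npy was higher at 48 h than at 24 h by a further 0.95 (limma, adjusted p = 1.08e-06), C1ql3 by 0.79, Bdnf by 0.63, Nts by 0.56, Gad2 by 0.55 and Sst by 0.54. Scg2 differed by 0.16, Pnoc by 0.19, Dusp6 by 0.11, Fos by 0.10 and Krt12 by -0.07, none past the threshold. Dlk1, Spred1 and Egr1 were lower by 0.50, 0.37 and 0.32 (limma, adjusted p = 0.0108, 0.00578 and 0.0123). Day in vitro and hours of BDNF cannot be told apart here.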

How the data were processed

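The authors deposited MAS5 signal intensities of Affymetrix Mouse Genome 430A 2.0 arrays, 1 per dish, for 22690 probe sets, per the submitters' processing notes and the labels; the MAS5 version is not given in the sources used here. The series description names division by the array median and a filter on present calls, and the deposited values show no trace of either. Signals were therefore divided by each array's median, floored at 0.1 and converted to log2. Probe sets with 1 gene symbol (20393) were kept, the brightest standing for each of 12394 genes. The upper 60% by mean level over all 30 arrays, 7436 genes, were tested. limma 3.58.1 in R 4.3.3 fitted 1 mean for each of 6 groups to all 30 arrays with eBayes moderation that lets the variance follow the mean level. Tests were two-sided, adjusted by Benjamini-Hochberg, with a threshold of 0.05. The precision is limited by the 5 arrays per group. On simulated data with 50 changed genes per size in 7436, the fit recovered 44% at 1.25-fold, 92% at 1.5-fold and 100% at 2-fold, with 9 false calls. The simulated noise was normal and independent between genes and dishes, and fewer genes were changed than were called here. These figures therefore do not give the error rate of the calls above.

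The members and the 49 gene lists were chosen with earlier results of these data known. Named are Xbp1, the 24 largest rises and 20 largest falls without overlap, up to 4 called members per list, all tested members of the lists of peptides, granins, GABA, ERK and immediate-early genes, and genes whose response differed between genotypes; further names were chosen after their values were seen. Replicate numbers did not pair the dishes. Alternatives were other scalings, floors, filters and thresholds, the mean of probe sets, only the 10 arrays compared, a replicate block, no trend, array weights and leaving out each of the 10 wild-type dishes; for the knockout results each of the 10 knockout dishes was also left out, an alternative added after seeing the data.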

Additional observations from a re-analysis of the deposited data

Results flagged for a closer look

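A dish stood apart from the other 4 of its group, by a gap over the range beyond the critical value of Dixon's test, in 7 of 102 groups of named genes examined; chance flags about 1 in 20. Icam5 read -2.24 in basal dish 4 against -0.47 to 0.18 in the others, and Dglucy -1.70 in treated dish 1 against -0.71 to -0.38. Cd52 read 1.36 in basal dish 1 against 0.98 to 1.08, and Sla 2.33 in basal dish 5 against 2.04 to 2.10. St6gal1 read 2.41 in treated dish 1 against 2.89 to 3.02, and Ldb2 2.24 in basal dish 1 against 2.66 to 2.69. Igf1 read 3.19 in treated dish 2 against 3.40 to 3.48. None of these 7 genes lost its wild-type call in limma when any 1 dish was left out.

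The response to 24 h of BDNF differed between genotypes, by limma's test of the difference, for 7 genes. The knockout change minus the wild-type change was -0.74 for Adamts5, -0.67 for Dusp6, -0.64 for Spry2, -0.58 for Igf1, -0.54 for Homer2, 0.60 for Zcchc18 and 0.93 for Bdnf.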

How the results depend on the processing

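All 24 of the largest rises and 19 of the 20 largest falls kept their call in every alternative that tested them; St6gal1 lost its call with the mean of probe sets. Of 170 named genes past the threshold, 92 kept their call in every alternative that tested them and 78 lost it in at least 1. With at least 1 dish left out, 35 of the 170 lost it. Leaving out 1 dish gave 435 to 633 rises, 370 to 487 falls, 94 to 109 rises and 27 to 42 falls of at least 1.5-fold when it was a wild-type dish, and 561 to 963 knockout calls and 3 to 16 genotype differences over dishes of both genotypes. Leaving out knockout dishes was an alternative chosen after seeing the data. Without rescaling there were 180 rises, 93 falls, 198 knockout calls and 0 genotype differences in limma (222 at an unadjusted p under 0.05). At an adjusted p of 0.01 the counts were 326, 219, 364 and 2. Rises and falls of at least 1.5-fold were 164 and 52 with no filter, and 48 and 12 in the upper 40% of genes. Array weights gave 1584 knockout calls and 22 genotype differences. The latter numbered 13 with quantile normalization, 12 with the 75th percentile, 4 in the upper 40%, 4 with the mean of probe sets, 11 with no trend and 11 with the replicate block. That block gave 733 rises and 540 falls in wild type, but same-numbered dishes deviated together with correlations of only -0.10 to 0.19, so the numbers do not pair them.

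The mean of probe sets turned Hyou1 to -0.0061, Cyp51 to -0.015 and Timp3 to 0.073. Leaving out 1 dish changed the sign of genes that had not passed: Slc32a1 ranged from -0.084 to 0.065, Jund from -0.212 to 0.043, Nr4a2 from -0.164 to 0.018 and Atf3 from -0.0075 to 0.125. The cause was not tested. The design has 1 pool of embryos per genotype and no time point before 24 h, and values near the floor understate changes.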
